A study of Homo sapiens with 30 samples.

Results

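The 45 genes described here encode proteins of ribosome biogenesis and of RNA polymerase I (Pol I), the enzyme that transcribes ribosomal RNA in the nucleolus. They were chosen by name as nucleolar genes out of the 68608 gene identifiers that the 3 expression tables of the series hold together. The choice was made with earlier results of these data known. The IMR32 table held all 45 by gene identifier, and those of NGP and SK-N-BE(2)c held 44 each, where BOP1 was not matched. IMR32, NGP and SK-N-BE(2)c are established human neuroblastoma cell lines. Cells of each line were transfected by lipofection with 100 nM of an antisense oligonucleotide (ASO), a short synthetic strand that pairs with an RNA and lowers or blocks it. NESPR, a long non-coding RNA, was the target of ASO1, ASO2 and ASO10, while NCA was the negative control ASO that every other group was compared with. The 30 libraries formed 9 groups. IMR32 received ASO1, ASO2 or NCA, with 4 libraries a group. NGP and likewise SK-N-BE(2)c received ASO2, ASO10 or NCA, with 3 libraries a group. All groups, the controls included, had thus received an oligonucleotide and the transfection reagent, and no untransfected group was analysed here. ASO2 was the oligonucleotide used in all 3 lines. The labels do not say whether replicates came from separate cultures, so the p-values measure only the spread between these libraries, which may be technical.

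Ribosome assembly starts when Pol I, brought to the ribosomal DNA by UBTF, the SL1 complex and RRN3, makes one long precursor RNA. Small nucleolar ribonucleoproteins (snoRNPs) then modify that precursor, box C/D particles by methylation and box H/ACA particles by pseudouridylation, while separate sets of assembly factors fold and cut it into the RNAs of the small and the large ribosomal subunit. In neuroblastoma the pathway is known as a target of the transcription factor MYCN, whose gene is amplified in many of these tumours.

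IMR32 libraries held 9412453 to 13949049 recovered reads, NGP libraries 11591178 to 13795561 and SK-N-BE(2)c libraries 11497829 to 15060356. NESPR was not matched by name and is not analysed here. LINC00682, a long intergenic RNA gene, had a mean of 2590 normalised counts with NCA, 1883 with ASO1 and 1464 with ASO2 in IMR32; whether it is the targeted RNA is not stated in the labels. In NGP its mean was 735 with NCA, 443 with ASO2 and 475 with ASO10, and in SK-N-BE(2)c 148, 91.7 and 87.6, in each case without overlap between the NCA libraries and the others. The adrenergic markers PHOX2A, HAND2, GATA3, ISL1 and DBH were present in every group of all 3 lines, but not at one level. PHOX2A was below NCA without overlap in every ASO group, with means of 1665 and 1703 against 2207 in IMR32 (ASO1, ASO2, NCA), 2374 and 2245 against 3158 in NGP (ASO2, ASO10, NCA) and 2370 and 2247 against 3227 in SK-N-BE(2)c. HAND2 was also below NCA without overlap in SK-N-BE(2)c (4636 with ASO2 and 3956 with ASO10 against 5913) and in NGP. Not every marker fell: ISL1 in SK-N-BE(2)c averaged 976 with ASO2, 580 with ASO10 and 660 with NCA. GATA3 in NGP averaged 3226 with ASO2, 2710 with ASO10 and 2948 with NCA. DBH in SK-N-BE(2)c averaged 4346 with ASO2, 3054 with ASO10 and 3614 with NCA. TH averaged 24.6 to 31.1 normalised counts in the IMR32 groups and 1396 or more in those of the other lines. IMR32 was scaled apart from the other lines, so its levels are not strictly comparable with theirs. Among markers of other cell types, the T cell marker CD3E was at 0 in every library and the leukocyte marker PTPRC did not exceed 4.72 in any. ALB, of hepatocytes, reached 23.7 and EPCAM, of epithelium, 27.5, both in NGP libraries with ASO10, where their means were 18.7 and 23.0 against 0.304 and 8.85 with NCA. PECAM1, of endothelium, was matched in IMR32 and averaged 4.93 with NCA, 17.1 with ASO1 and 7.74 with ASO2. The fibroblast marker LUM was higher with ASO2 in NGP and SK-N-BE(2)c. It averaged 204 normalised counts with ASO2, 96.6 with ASO10 and 69.3 with NCA in NGP, and 246, 100.9 and 115 in SK-N-BE(2)c. The ASO10 libraries of NGP also lay above NCA without overlap. In IMR32 the LUM values overlapped, with means of 13.6 for ASO1, 10.2 for ASO2 and 9.29 for NCA. The part of these genes in the results below was not tested. In bulk RNA, fewer cells of a type and less RNA per cell cannot be told apart.

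The genes of ribosome biogenesis were mostly higher with ASO2 than with NCA in all 3 lines. In IMR32, 34 of the 45 members rose with ASO2 and 0 fell, where 17.6% of all 17309 genes tested rose and 14.8% fell, and the members' log2 differences ran from 0.06 to 0.55 with a median of 0.25. With no member below NCA, the count of falls was also 0 at any unadjusted threshold, with edgeR and with DESeq2. In NGP, 31 of 44 rose and 3 fell (all genes 30.6% and 28.1%), with a median log2 difference of 0.32. In SK-N-BE(2)c, 36 of 44 rose and 4 fell (all genes 33.6% and 33.4%), with a median of 0.44. The median over all genes tested lay between -0.02 and 0.01 in these 3 comparisons. The all-gene shares include genes with low counts, which are called less often. Among genes with a mean of at least 50 the shares were larger. In IMR32, 2883 of 12400 such genes rose and 2312 fell. For NGP these counts were 4004 and 3466 of 11225, and for SK-N-BE(2)c 4196 and 3978 of 11002. A member or gene was called at an adjusted p under 0.05 in limma, and log2 differences are on the log2(normalised count + 1) scale.

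The 3 lines share no libraries, so the ASO2 calls can be set side by side. Called higher in all 3 lines were 26 of 44 members, where 15% of the 11594 genes tested in every line met the same condition. Because the members were chosen with earlier results known, this gap is no independent support. Called lower in all 3 lines were 0 of 44 members by limma (10.2% of all genes). This 0 was settled by IMR32 alone, where no member fell with ASO2. It is therefore no result of the 3 lines together. With all libraries brought to 1 common total (called rescaling below), the SK-N-BE(2)c median over all genes with ASO2 moved from -0.02 to -0.15, all genes split into 3505 higher and 5612 lower in place of 4555 and 4523, and the members into 30 higher and 5 lower with a median of 0.30. The ASO2 split over all genes also turned in IMR32, from 3051 higher and 2556 lower to 2648 and 3113, with 32 members higher and 0 lower, and in NGP, from 4417 and 4060 to 3664 and 4693, with 28 members higher and 4 lower. The member medians were then 0.22 and 0.25.

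The other oligonucleotides moved fewer members. With ASO1 in IMR32, 19 of 45 members rose and 2 fell (all genes 13.6% and 14.4%; member median 0.13). With ASO10 in NGP, 18 of 44 rose (40.9%) and 6 fell (13.6%), against 26.8% and 27.6% of all genes, with a member median of 0.10. In SK-N-BE(2)c, 14 rose (31.8%) and 9 fell (20.45%), against 27.8% and 31.1% of all genes. The member median there was close to 0, at -0.0046. The share that rose in SK-N-BE(2)c is near that of all genes and is no result about the members. Within a line both ASO groups were compared with the same NCA libraries, so the columns of one line are not independent of each other.

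**Figure D1:**
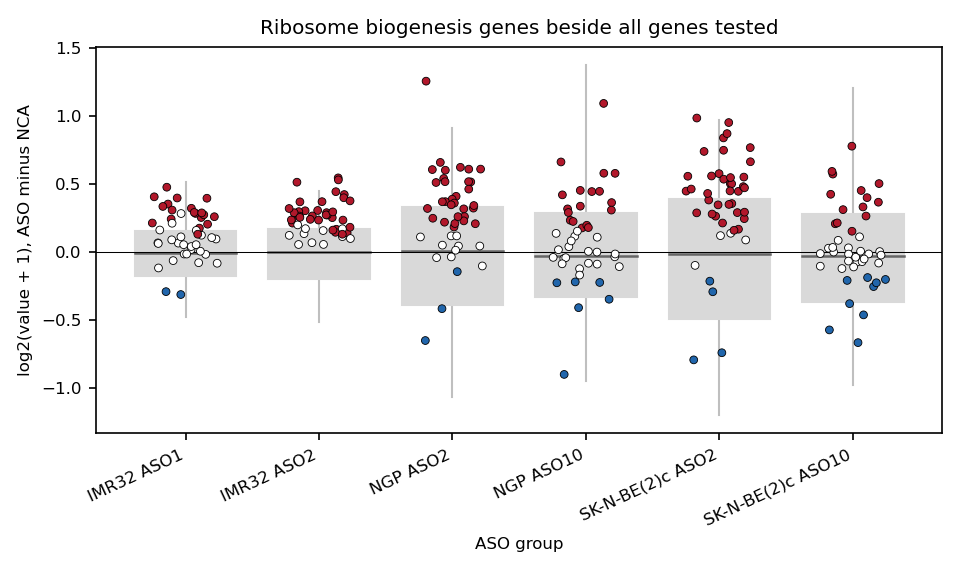
Log2 difference from NCA of each member (points) in the 6 comparisons, over the range of all genes tested (grey box from the 25th to the 75th percentile, grey line at the median, thin line from the 5th to the 95th percentile). Red points were called higher and blue points lower at an adjusted p under 0.05 in limma, and white points were not called; the ASO2 points lie mostly above the grey medians, with member medians of 0.25, 0.32 and 0.44.

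**Figure D2:**
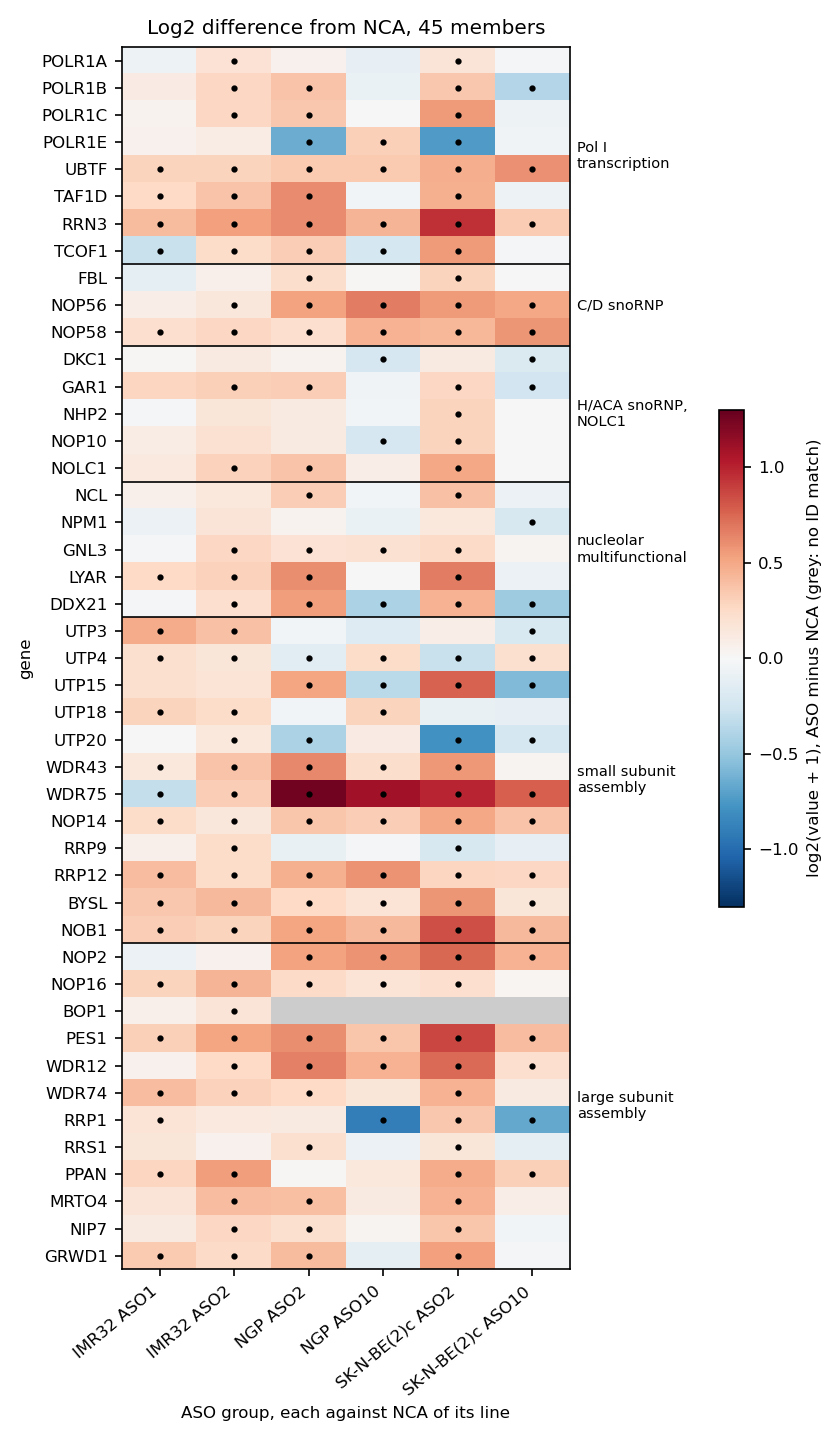
Log2 difference from NCA for the 45 members, in rows ordered by role, in the 6 ASO groups; red is higher and blue lower than NCA, a dot marks an adjusted p under 0.05 in limma and grey marks BOP1 where no identifier matched. The ASO2 columns are mostly red in every role, while POLR1E and UTP20 in NGP and SK-N-BE(2)c are blue, and the ASO10 columns hold blue cells at RRP1, UTP15 and DDX21.

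What the members share beyond their function was looked for in their promoters, taken from RefSeq on GRCh38.p14 as 250 bases before to 50 bases after the transcription start. Of the 45 members, 38 had an entry. The letters CACGTG, the E-box that MYC family dimers bind and a sequence that reads the same on both strands, were present in 12 of these 38 promoters (31.6%), against 7.43% of all 27305 promoters in the table. CCGGAAG, the core that ETS family factors bind, was present on either strand in 16 of 38 (42.1% against 10.7%), and GGGCGG, the GC box of SP1, in 26 of 38 (68.4% against 44.6%). Such a match describes letters and not binding. The promoters compared with were not limited to genes expressed in these lines or to a like base composition. The higher shares may therefore not be particular to these members. The E-box promoters belonged to BYSL, FBL, MRTO4, NOP10, NOP14, NOP2, PES1, RRP9, UTP18, UTP20, UTP4 and WDR43, and in 8 of the 12 a CACGTG began within the first 50 transcribed bases. Of the 12 members with the letters, 5 were called higher with ASO2 in all 3 lines, and of the 26 without them 17 were. NOP14 and PES1 were called higher in every comparison with NCA. UTP4 and UTP20 fell with ASO2 in NGP and SK-N-BE(2)c, though both rose with ASO2 in IMR32. UTP4 was called higher in 4 of the 6 comparisons and lower in 2, and its NGP fall was lost without some single libraries. The E-box letters thus stand in promoters of members with calls in either direction. The runs below show it in capitals, from 100 bases before the start to the 30th transcribed base.
NOP14 (chr4:2963377-2963506, minus strand): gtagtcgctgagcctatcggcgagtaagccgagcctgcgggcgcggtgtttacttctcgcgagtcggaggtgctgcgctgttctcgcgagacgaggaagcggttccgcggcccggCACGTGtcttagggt
PES1 (chr22:30591881-30592010, minus strand): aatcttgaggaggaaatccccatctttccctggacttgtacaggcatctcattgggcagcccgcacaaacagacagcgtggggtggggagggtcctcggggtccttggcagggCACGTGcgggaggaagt
UTP4 (chr16:69132549-69132678, plus strand): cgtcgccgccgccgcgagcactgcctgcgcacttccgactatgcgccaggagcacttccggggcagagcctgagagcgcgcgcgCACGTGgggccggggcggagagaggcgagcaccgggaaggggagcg
UTP20 (chr12:101280005-101280134, plus strand): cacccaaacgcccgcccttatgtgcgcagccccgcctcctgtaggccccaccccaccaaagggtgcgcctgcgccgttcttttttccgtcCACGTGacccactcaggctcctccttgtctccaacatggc

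In the Pol I group, 8 genes for subunits of the enzyme and for its initiation factors, 7 rose with ASO2 in IMR32, 6 for NGP and 7 for SK-N-BE(2)c. The shares of all genes that rose were 17.6%, 30.6% and 33.6%. The 1 member that fell was POLR1E, for NGP as for SK-N-BE(2)c. RRN3, the factor that makes Pol I competent to initiate, was at 689, 675, 718 and 756 normalised counts in the NCA libraries of IMR32, at 967, 903, 938 and 954 with ASO1 and at 1154, 1019, 941 and 998 with ASO2. Values for NGP were 1171, 1099.7 and 1148 with NCA, 1826, 1676 and 1722 with ASO2 and 1680.3, 1452 and 1532 with ASO10. Values for SK-N-BE(2)c were 1261, 1344 and 1279 with NCA, 2462, 2468 and 2591 with ASO2 and 1663, 1597 and 1631 with ASO10. Every library with a NESPR ASO was above every NCA library of its line. The log2 difference with ASO2 was 0.53 ± 0.06 (SE, limma adjusted p = 1.82e-06) in IMR32, 0.61 ± 0.06 (SE, limma adjusted p = 9.47e-09) in NGP and 0.95 ± 0.06 (SE, limma adjusted p = 2.07e-14) in SK-N-BE(2)c, and with ASO1 and ASO10 it lay between 0.33 and 0.45. RRN3 overlaps PDXDC1 on the other strand and has 2 named pseudogenes, and the sources used here do not say whether counting used strand.

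UBTF, the HMG-box protein that coats active ribosomal DNA, was also above NCA with every ASO. Its IMR32 values were 2757, 2659.5, 2692 and 2735 with NCA, 3410.3, 3147, 3312 and 3416 with ASO1 and 3518, 3344, 3156 and 3253 with ASO2. It was at 4808, 4807 and 4271 with NCA in NGP, at 6159.5, 5829 and 5612 with ASO2 and at 5957, 5951 and 5627 with ASO10. SK-N-BE(2)c libraries were at 3319, 3305 and 3141 with NCA, 4504, 4648 and 4405 with ASO2 and 4563, 5184 and 5011 with ASO10. No ASO library overlapped the controls of its line. Log2 differences from NCA were 0.29 with ASO1 and with ASO2 in IMR32, 0.34 with ASO2 and with ASO10 for NGP, and for SK-N-BE(2)c 0.47 with ASO2 and 0.59 with ASO10. In that last line the lower value with ASO2 than with ASO10 (-0.12, limma adjusted p = 0.0487) was lost in several fits that left out 1 library (-0.08, limma adjusted p = 0.22, without ASO10 replicate 2).

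POLR1E, a Pol I subunit of the heterodimer that aids initiation, took the opposite course to the rest of the group with ASO2 in NGP and SK-N-BE(2)c. NGP libraries were at 1004, 985 and 1024 normalised counts with NCA, 638, 661 and 622 with ASO2 and 1309, 1213 and 1214 with ASO10. Counts for SK-N-BE(2)c were 525, 531 and 564 with NCA, 312, 329 and 329 with ASO2 and 488, 536 and 542 with ASO10. All ASO2 libraries of both lines lay below all NCA libraries, and the ASO10 libraries of NGP lay above them. ASO2 thus gave -0.65 ± 0.06 (SE, limma adjusted p = 4.84e-09) in NGP and -0.74 ± 0.08 (SE, limma adjusted p = 4.81e-09) in SK-N-BE(2)c, and ASO10 0.31 ± 0.06 (SE, limma adjusted p = 0.000247) in NGP. In IMR32 the 12 values overlapped, at 641, 604, 625 and 632 with ASO1, 689, 608, 646 and 641 with ASO2 and 644, 558, 612 and 597 with NCA, and neither ASO passed the test.

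TCOF1, which encodes treacle, a nucleolar scaffold for Pol I, separated the oligonucleotides. In IMR32 it was at 3218, 3126, 3220.1 and 3093 with NCA, 2708, 2497, 2475 and 2679 with ASO1 and 3791, 3866, 3652 and 3602 with ASO2, with no overlap among the 3 groups. It fell with ASO1 (-0.29 ± 0.04 SE, limma adjusted p = 5.16e-05) and rose with ASO2 (0.24 ± 0.04 SE, limma adjusted p = 0.000451). The NGP libraries held 2637, 2606 and 2501 with NCA, 3099.7, 3189 and 3412 with ASO2 and 2193, 2277 and 2157 with ASO10, and those of the SK-N-BE(2)c line 2626, 2688 and 2454 with NCA, 3821, 3727 and 3834 with ASO2 and 2521, 2589.9 and 2536 with ASO10. The ASO2 libraries were again the highest of each line. The catalytic subunits POLR1A and POLR1B, POLR1C, which RNA polymerase III also uses, and the SL1 subunit TAF1D rose with ASO2 in IMR32 by log2 differences of 0.18, 0.27, 0.27 and 0.37. In NGP the values of POLR1B, POLR1C and TAF1D with ASO2 were 0.37, 0.35 and 0.61 and all 3 passed, while POLR1A was at 0.05. In SK-N-BE(2)c all 4 passed, at 0.17 for POLR1A, 0.35 for POLR1B, 0.56 for POLR1C and 0.46 for TAF1D, but the POLR1A call was lost after rescaling (0.03, limma adjusted p = 0.659). With ASO10, POLR1B fell in SK-N-BE(2)c (-0.38), and POLR1A, POLR1C and TAF1D did not pass in either line.

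**Figure D3:**
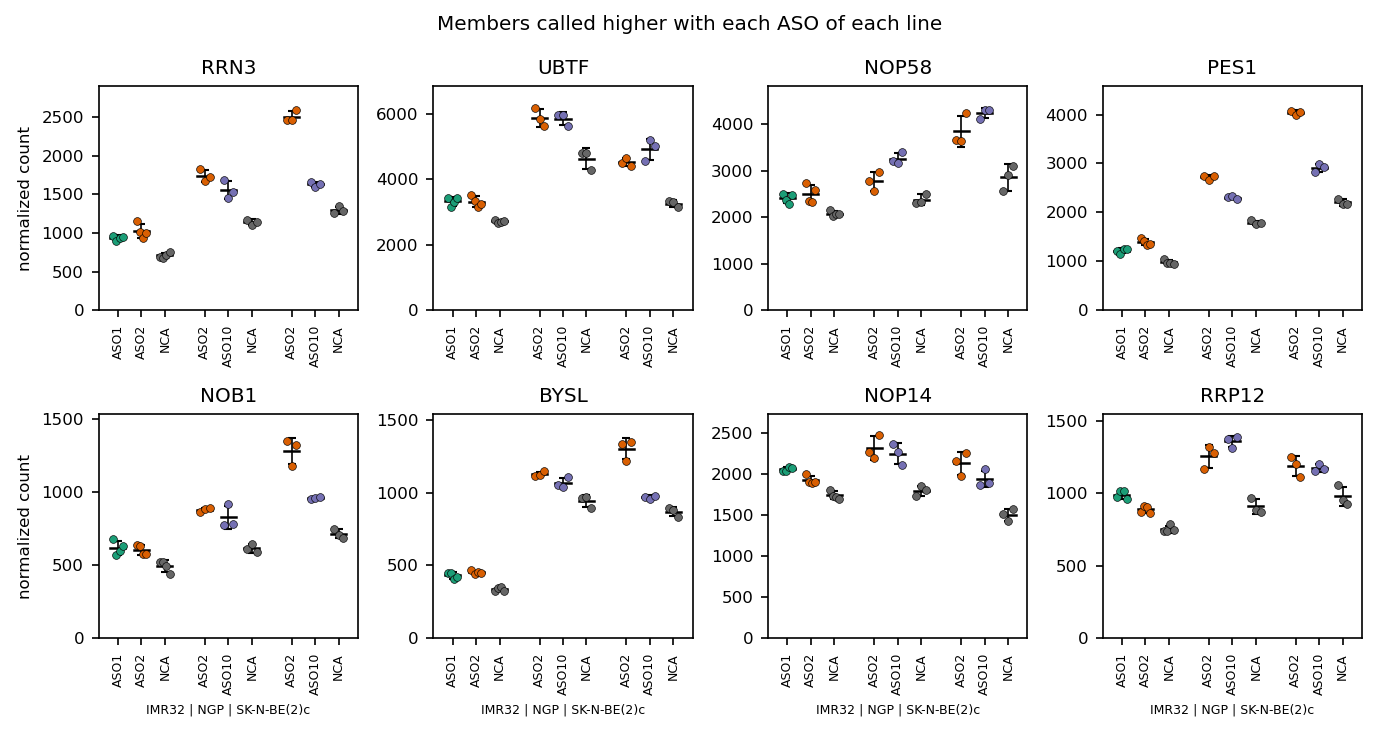
Normalised counts of 8 members called higher with every ASO, by library (points), group mean (horizontal line) and SD (whiskers), with n = 4 a group in IMR32 (left 3 groups of each panel) and n = 3 in NGP (middle) and SK-N-BE(2)c (right); each vertical axis starts at 0. RRN3 and PES1 in SK-N-BE(2)c show the ASO2 points well above both other groups, at 2462 to 2591 and at 3982 to 4072.

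Of the box C/D snoRNP core, NOP56 and NOP58, its scaffold proteins, rose in most comparisons and the methyltransferase fibrillarin (FBL) in fewer. NOP58 was at 2147, 2018, 2061 and 2072 normalised counts with NCA, 2492, 2380.0, 2276 and 2486 with ASO1 and 2730.4, 2350.3, 2331 and 2585 with ASO2 in IMR32. It was at 2313, 2323 and 2505 with NCA, 2785, 2569 and 2977 with ASO2 and 3217, 3172 and 3394 with ASO10 in NGP, and at 2554, 2899 and 3111 with NCA, 3665, 3645 and 4234 with ASO2 and 4113, 4306 and 4294 with ASO10 in SK-N-BE(2)c. Each ASO group lay above NCA without overlap. NOP56 in NGP was at 4099, 4143 and 4308 with NCA, 6071, 5889.7 and 6012 with ASO2 and 6661, 6486 and 6731 with ASO10, and in SK-N-BE(2)c at 4579, 4797 and 5289 with NCA, 7055, 6964 and 7402 with ASO2 and 6682, 7202 and 6894 with ASO10. In NGP both NOP56 and NOP58 were lower with ASO2 than with ASO10, with log2 differences of -0.15 ± 0.05 (SE, limma adjusted p = 0.00752) and -0.23 ± 0.06 (SE, limma adjusted p = 0.00115). In IMR32, where NOP56 was at 2981, 2988, 3211 and 3156 with NCA, 3219, 3394, 3262 and 3258 with ASO1 and 3369.8, 3403, 3364 and 3476 with ASO2, its ASO2 difference of 0.14 passed and its ASO1 difference of 0.09 did not. After rescaling, the ASO2 difference was 0.11 (limma adjusted p = 0.0557). FBL rose only with ASO2 in NGP (0.23) and SK-N-BE(2)c (0.29) among its 6 comparisons. The loci of NOP56 and NOP58 hold 5 and 4 annotated small nucleolar RNAs on the same strand.

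Of the 5 genes for box H/ACA proteins and their chaperone, 2 rose with ASO2 in IMR32, 2 for NGP and 4 for SK-N-BE(2)c, and with ASO10 2 fell in each of NGP and SK-N-BE(2)c. With so few genes, shares such as the 2 of 5 are near those of all genes (30.6% higher with ASO2 in NGP, 27.6% and 31.1% lower with ASO10) and are no result about the group. DKC1, the pseudouridine synthase, passed with no ASO2 group (0.11 in IMR32, 0.05 in NGP, 0.12 in SK-N-BE(2)c) and fell with ASO10, by 0.22 on the log2 scale in NGP and by 0.19 in SK-N-BE(2)c. NHP2 and NOP10, small core proteins, rose with ASO2 in SK-N-BE(2)c (0.29 each), and NOP10 fell with ASO10 in NGP (-0.22). GAR1 rose with ASO2 (0.31 in IMR32, 0.32 for NGP and 0.26 for SK-N-BE(2)c), of which the IMR32 and SK-N-BE(2)c calls were lost when single libraries were left out (for example 0.20, limma adjusted p = 0.149, without IMR32 NCA replicate 4, and 0.18, adjusted p = 0.0955, without SK-N-BE(2)c NCA replicate 1). With ASO10, GAR1 fell in SK-N-BE(2)c (-0.25), a call lost with DESeq2 (-0.22, DESeq2 adjusted p = 0.0578). NOLC1, a chaperone of both snoRNP classes, rose with ASO2 at 0.30, 0.37 and 0.50 (IMR32, NGP, SK-N-BE(2)c) and was near 0 with ASO10 (0.08 and 0.01). Set directly against ASO10, ASO2 gave higher values for 5 of 5 genes of this group in NGP and 5 of 5 in SK-N-BE(2)c, with medians of 0.29 and 0.31. The shares of all genes higher there were 30.6% and 34.6%. The NHP2 call in NGP (0.15) was lost with edgeR (0.13, edgeR adjusted p = 0.071).

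Of the multifunctional nucleolar proteins, DDX21, an RNA helicase that links Pol I and Pol II transcription to RNA processing, moved in opposite directions with ASO2 and ASO10. Values for NGP were 6074, 6036 and 6699 normalised counts with NCA, 9171, 8712 and 9484 with ASO2 and 4692, 4557 and 4918 with ASO10. The SK-N-BE(2)c libraries held 5317, 5609 and 5907 with NCA, 7199.9, 7417 and 8367 with ASO2 and 4278, 3863 and 4087 with ASO10. The 3 groups of each line did not overlap. ASO2 gave 0.54 ± 0.05 (SE, limma adjusted p = 1.68e-09) and ASO10 -0.41 ± 0.05 (SE, limma adjusted p = 2.18e-07) in NGP. In SK-N-BE(2)c they gave 0.45 ± 0.06 (SE, limma adjusted p = 8.87e-08) and -0.46 ± 0.06 (SE, limma adjusted p = 8.8e-08). In IMR32 it was at 4647, 4093, 4088 and 3994 with NCA, 4715, 3917, 3810.4 and 4222 with ASO1 and 5400.3, 4829, 4573 and 4708 with ASO2, where groups overlapped. The IMR32 rise with ASO2 (0.21) was lost without ASO2 replicate 1 (0.16, limma adjusted p = 0.0565), NCA replicate 2 or NCA replicate 4.

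LYAR, a nucleolar zinc finger protein, rose with ASO2 at 0.30, 0.61 and 0.66 (IMR32, NGP, SK-N-BE(2)c) and with ASO1 at 0.26, and was at 0.00 and -0.07 with ASO10. GNL3 (nucleostemin) rose with ASO2 by 0.27, 0.19 and 0.25, of which the NGP and SK-N-BE(2)c calls did not hold after rescaling (0.12 and 0.11). Nucleolin (NCL), the most abundant member per kilobase of exon in the controls of IMR32 and SK-N-BE(2)c, rose with ASO2 in NGP (0.32) and SK-N-BE(2)c (0.38), and NPM1 (nucleophosmin), with 45 named pseudogenes, did not pass with ASO2 in any line. Replicate 1 of the IMR32 controls stood above the other 3 for NCL (23826 against 20307 to 20743), NPM1 (8866 against 7652 to 7681), NOLC1, DDX21 and FBL. For these genes replicate 1 was also the highest library with ASO1 and with ASO2, for NCL at 25260 and 26766. Without NCA replicate 1, NCL (0.19, limma adjusted p = 0.0485), NPM1 (0.22, limma adjusted p = 0.0191), NOP10 (0.26) and RRP1 (0.16) passed with ASO2 in IMR32. BOP1 no longer did, and the members called with ASO2 there were 37 higher and 0 lower. That fit kept the high ASO2 replicate 1, so the added calls are no support for a rise.

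The small subunit factors spanned the widest range of the groups with ASO2 in NGP and SK-N-BE(2)c. Of 12, 11 rose with ASO2 in IMR32 (17.6% of all genes). In NGP 7 rose and 2 fell (all genes 30.6% and 28.1%), and in SK-N-BE(2)c 7 rose and 3 fell (all genes 33.6% and 33.4%). The shares that fell, 16.7% and 25%, lay below those of all genes, so the falls are no result about the group. WDR75, a subunit of the processome part that couples transcription to early processing, had the largest rise of any member. NGP libraries were at 491, 436 and 623 normalised counts with NCA, 1259, 1229 and 1180.3 with ASO2 and 1041, 1109 and 1125 with ASO10. Values for SK-N-BE(2)c were 978, 916 and 1166 with NCA, 1900.5, 1926 and 2224 with ASO2 and 1758, 1638 and 1839 with ASO10. Both ASO groups were far above NCA in both lines: ASO2 gave 1.26 ± 0.09 (SE, limma adjusted p = 1.2e-11) in NGP, a fold of 2.39 on the scale of the mean logs, and 0.99 ± 0.08 (SE, limma adjusted p = 4.57e-12) in SK-N-BE(2)c, and ASO10 gave 1.09 and 0.78. In IMR32, WDR75 was at 888, 934, 847 and 970.1 with NCA, 771, 697, 712 and 750.2 with ASO1 and 1188, 1108, 1122 and 1126 with ASO2. It fell with ASO1 (-0.31 ± 0.05 SE, limma adjusted p = 0.000167) and rose with ASO2 (0.32 ± 0.05 SE, limma adjusted p = 0.000138), so that the 3 groups were apart. On GRCh38 in GENCODE 29 the gene spans chr2:189441433-189475565 and overlaps no other coding gene.

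UTP15 and UTP4 belong to the same processome part as WDR75, and each differed in sign between ASO2 and ASO10. UTP15 in NGP was at 441, 449 and 490.2 with NCA, 691, 607 and 673 with ASO2 and 357, 341 and 388 with ASO10, and in SK-N-BE(2)c at 409, 416 and 432 with NCA, 705, 709.8 and 729 with ASO2 and 313, 269 and 265 with ASO10. It rose with ASO2 (0.51 and 0.77) and fell with ASO10 (-0.35 and -0.57), and in SK-N-BE(2)c the direct difference of ASO2 from ASO10 was 1.34 ± 0.08 (SE, limma adjusted p = 6.5e-14). Its IMR32 values overlapped (478, 528, 476 and 537 with NCA, 621, 572, 511 and 642 with ASO1, 668, 523, 539.9 and 552 with ASO2) and did not pass. UTP4 went the other way, with 1735, 1617 and 1734 for NCA, 1522, 1538 and 1543 for ASO2 and 1962, 1974 and 2047 for ASO10 in NGP and 1848, 1919.6 and 1945 with NCA, 1510.5, 1582 and 1576 with ASO2 and 2129.6, 2224 and 2251 with ASO10 in SK-N-BE(2)c. In both lines the ASO2 libraries were the lowest and the ASO10 libraries the highest, although the NGP fall with ASO2 (-0.14) was lost without any 1 of 5 libraries (limma adjusted p = 0.106 without NCA replicate 1). In IMR32 UTP4 rose with both ASOs, from 762, 727, 764 and 781 with NCA to 888, 908, 832 and 872 with ASO1 and 870.1, 829, 842 and 855 with ASO2, the call with ASO2 lost without NCA replicate 2 (0.14, limma adjusted p = 0.0534). UTP4 overlaps SNTB2 on the same strand and CHTF8 on the other, and UTP15 overlaps ANKRA2 on the other.

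UTP20, a very large scaffold of the late processome, fell with ASO2 in NGP and SK-N-BE(2)c. It was at 1088, 1096 and 1284 with NCA, 851, 957 and 792 with ASO2 and 1233, 1181 and 1322 with ASO10 in NGP. SK-N-BE(2)c libraries were at 1856, 1782 and 2028 with NCA, 983, 1168 and 1125 with ASO2 and 1660.0, 1505 and 1683 with ASO10. The fall with ASO2 was -0.42 ± 0.08 (SE, limma adjusted p = 5.29e-05) and -0.79 ± 0.07 (SE, limma adjusted p = 5.46e-11). With ASO10 it fell in SK-N-BE(2)c (-0.22), a call narrowly lost without ASO10 replicate 2 (-0.17), and stood at 0.11 in NGP without passing. In IMR32 it was at 2186, 2148, 2091 and 2124 with NCA, 2338, 2124, 2044 and 2094 with ASO1 and 2401, 2435, 2187 and 2353 with ASO2, and the ASO2 difference of 0.13 passed narrowly (adjusted p = 0.044) and was lost under rescaling (0.10, adjusted p = 0.0683). RRP9, a protein of the U3 particle, fell with ASO2 in SK-N-BE(2)c (-0.21), a call lost without ASO2 replicate 3 (-0.13, adjusted p = 0.133), and rose with ASO2 in IMR32 (0.24), a call lost without NCA replicate 3 (0.20, adjusted p = 0.0567).

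**Figure D4:**
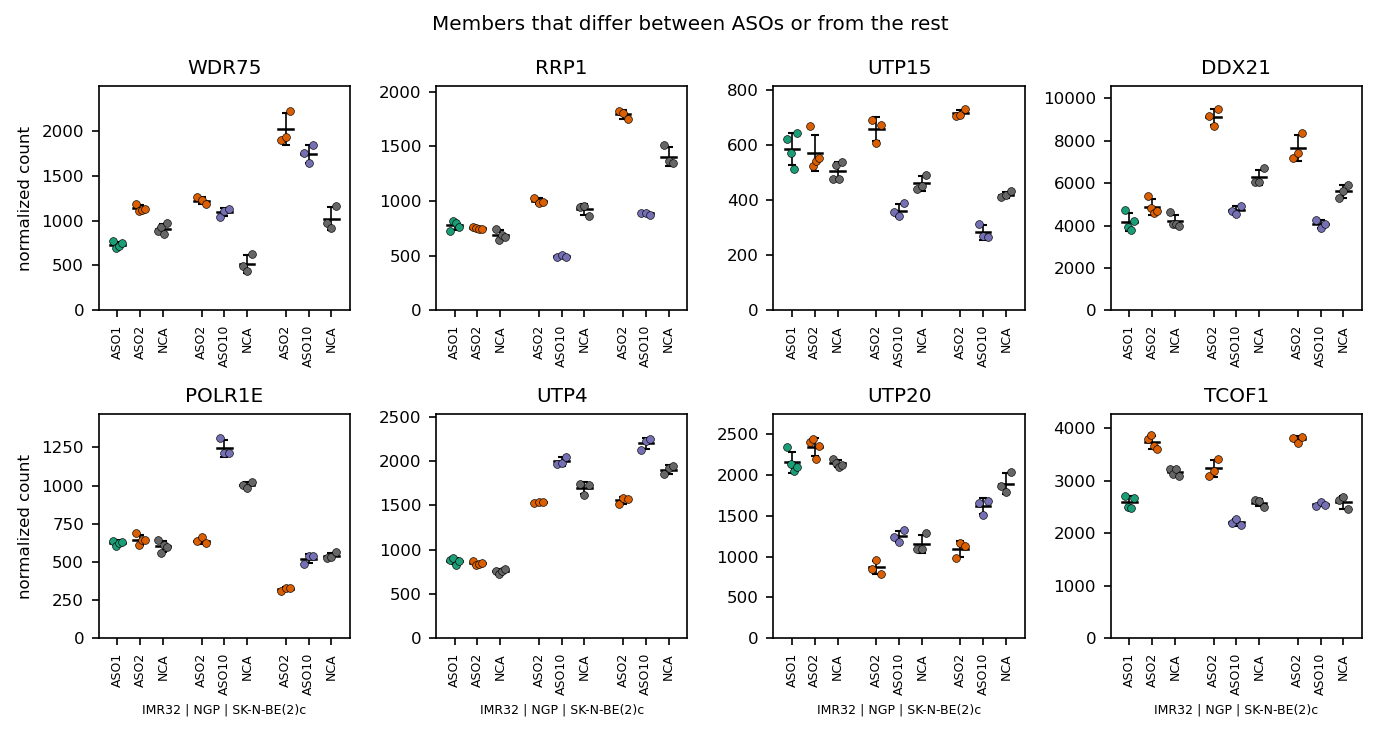
Normalised counts of 8 members that separated the oligonucleotides or went against the other members, by library (points), group mean (horizontal line) and SD (whiskers), with n = 4 a group in IMR32 (left 3 groups of each panel) and n = 3 in NGP (middle) and SK-N-BE(2)c (right); each vertical axis starts at 0. RRP1 with ASO10 lies at 486 to 508 in NGP against 867 to 957 with NCA, and POLR1E with ASO2 at 622 to 661 against 985 to 1024.

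NOB1, the nuclease that cuts the end of the small subunit RNA, rose in every comparison with NCA. It was at 523, 524, 496 and 438 with NCA, 682, 572, 596 and 629 with ASO1 and 637, 631, 578 and 576 with ASO2 in IMR32, and at 610.0, 647 and 587 with NCA, 866, 881 and 889.9 with ASO2 and 776, 919.6 and 780.1 with ASO10 in NGP. Counts for SK-N-BE(2)c were 749, 706 and 687 with NCA, 1347, 1178 and 1317 with ASO2 and 952, 958 and 966 with ASO10. The largest of its differences was 0.84 ± 0.07 (SE, limma adjusted p = 1.05e-11) with ASO2 in SK-N-BE(2)c. BYSL (bystin), a late factor of the same particle, had 327, 348, 349 and 327 with NCA, 449.9, 451, 408 and 420.2 with ASO1 and 467, 443, 454 and 450.2 with ASO2 in IMR32. It had 959.7, 969 and 893 with NCA, 1115, 1123 and 1145 with ASO2 and 1049.5, 1039 and 1104 with ASO10 in NGP, and 895, 882 and 832 with NCA, 1334, 1216 and 1347 with ASO2 and 970.0, 953 and 978 with ASO10 in SK-N-BE(2)c. The groups with an ASO lay above NCA in each line, but its ASO10 calls (0.18 and 0.15) were lost without single libraries (limma adjusted p = 0.0767 without NGP ASO10 replicate 3 and 0.139 without SK-N-BE(2)c NCA replicate 3).

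NOP14, a processome factor whose promoter is shown above, was at 1803, 1732, 1719 and 1689.5 with NCA, 2039, 2029, 2086 and 2064 with ASO1 and 1991, 1903, 1884 and 1905 with ASO2 in IMR32. It was at 1734, 1855 and 1797 with NCA, 2265, 2190.0 and 2469.6 with ASO2 and 2358, 2259.5 and 2104 with ASO10 in NGP and at 1509, 1421 and 1570.0 with NCA, 2154, 1976 and 2252 with ASO2 and 1868, 2054 and 1884 with ASO10 in SK-N-BE(2)c. No ASO library overlapped the controls of its line, and the differences ran from 0.15 (ASO2, IMR32) to 0.50 (ASO2, SK-N-BE(2)c). RRP12, an export and maturation factor, was at 739, 739, 786 and 746 with NCA, 977, 1014, 1019 and 958 with ASO1 and 875, 916, 905 and 862 with ASO2 in IMR32. The NGP libraries held 967, 888 and 875 with NCA, 1169, 1321 and 1277 with ASO2 and 1379, 1315 and 1387 with ASO10, and those of the SK-N-BE(2)c line 1056, 955 and 929 with NCA, 1253, 1201 and 1116 with ASO2 and 1156, 1206 and 1168 with ASO10. Each ASO group lay above the controls of its line. In SK-N-BE(2)c the differences were 0.28 with ASO2 and 0.27 with ASO10, and the ASO2 call there was lost after rescaling (0.14, limma adjusted p = 0.0595).

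UTP3 and UTP18, both of the processome, rose with both oligonucleotides in IMR32. UTP3 was at 468, 440.4, 424 and 392 with NCA, 625, 539, 634 and 606 with ASO1 and 613, 565, 512 and 552 with ASO2 in that line, with the largest rise of any member with ASO1 (0.48 ± 0.07 SE, limma adjusted p = 2.97e-05). Values for NGP were 742, 760.3 and 756 with NCA, 806, 697 and 699 with ASO2 and 679, 621 and 713 with ASO10, and those of the SK-N-BE(2)c line 741, 773 and 919 with NCA, 843, 868 and 869 with ASO2 and 665, 734 and 711 with ASO10. No rise passed in those lines, and the fall with ASO10 in SK-N-BE(2)c (-0.20) was lost with DESeq2 (-0.17, DESeq2 adjusted p = 0.0782). UTP18 rose in IMR32 from 1347, 1292, 1402 and 1373 with NCA to 1740.3, 1589, 1642 and 1647 with ASO1 and 1661, 1563, 1529.7 and 1625 with ASO2. It rose in NGP with ASO10 (1686, 1594 and 1684 against 1317, 1251 and 1497 with NCA and 1331, 1320.1 and 1306 with ASO2). The SK-N-BE(2)c libraries held 1281, 1251 and 1541 with NCA, 1189, 1332 and 1274 with ASO2 and 1337, 1197 and 1246 with ASO10, and neither passed. IMR32 was not part of the joint model of lines, so its differences were not tested against those of the other lines. WDR43, a further subunit beside WDR75, rose with ASO2 at 0.37, 0.62 and 0.56 (IMR32, NGP, SK-N-BE(2)c).

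Of the large subunit factors, 11 of 11 rose with ASO2 in SK-N-BE(2)c, 9 of 11 in NGP and 9 of 12 in IMR32 (all genes 33.6%, 30.6% and 17.6%). Every matched factor of this group had a positive difference in these 3 comparisons. PES1, BOP1 and WDR12 form the PeBoW complex, which is needed for cutting the precursor of the large subunit RNA. PES1 was at 1050.0, 963, 961 and 943 normalised counts with NCA, 1206, 1147, 1253 and 1249.8 with ASO1 and 1482, 1418, 1344 and 1354 with ASO2 in IMR32. It was at 1836, 1754 and 1776 with NCA, 2741, 2669.8 and 2739.9 with ASO2 and 2306, 2328 and 2277 with ASO10 in NGP. Values for SK-N-BE(2)c were 2283, 2164 and 2172 with NCA, 4072, 3982 and 4059 with ASO2 and 2831, 2985 and 2925 with ASO10. In every line the order was NCA, then ASO1 or ASO10, then ASO2, with no overlap between neighbours, and ASO2 gave 0.51 ± 0.05 (SE, limma adjusted p = 4.46e-07) in IMR32, 0.60 ± 0.05 (SE, limma adjusted p = 3.39e-10) in NGP and 0.87 ± 0.05 (SE, limma adjusted p = 2e-14) in SK-N-BE(2)c. PES1 overlaps TCN2 on the other strand.

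WDR12 followed the same order in NGP, at 1117, 1137 and 1254 with NCA, 1623, 1565 and 1591 with ASO10 and 1852, 1804 and 1883 with ASO2, and in SK-N-BE(2)c, at 1522, 1539.5 and 1761 with NCA, 1870.2, 1836 and 1879.8 with ASO10 and 2606, 2565 and 2882 with ASO2. The IMR32 libraries held 847, 814, 779.8 and 746 with NCA, 867, 832, 811 and 799 with ASO1 and 1002, 956, 900.0 and 947 with ASO2, where the ASO2 difference (0.26) passed and the ASO1 difference (0.06) did not. BOP1, matched by identifier in IMR32 only, rose with ASO2 by 0.17, a call lost without NCA replicate 4 (0.15, limma adjusted p = 0.0806). NOP2, an RNA methyltransferase, rose in NGP (0.52 with ASO2, 0.58 with ASO10) and SK-N-BE(2)c (0.75 and 0.45). In IMR32 NOP2 had a mean of only 50.3 ± 12.5 (SD, n = 4) normalised counts with NCA against 2788 for NGP and 2582 for SK-N-BE(2)c. The IMR32 values come from another set of gene identifiers (62710) than those of NGP and SK-N-BE(2)c (57905 each) and were scaled apart. The gap can therefore not be read as a difference between the lines. NOP2 also overlaps another annotated coding gene on the same strand.

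RRP1, a nucleolar protein of large subunit RNA processing, was the member that ASO10 lowered most. NGP libraries were at 946, 957 and 867 with NCA, 1031, 980.5 and 996 with ASO2 and 489, 508 and 486 with ASO10. SK-N-BE(2)c libraries were at 1509, 1366 and 1347 with NCA, 1824, 1808 and 1749 with ASO2 and 894, 891 and 874 with ASO10. The ASO10 libraries of each line were far below the others, with log2 differences from NCA of -0.90 ± 0.07 (SE, limma adjusted p = 4.72e-11) and -0.66 ± 0.06 (SE, limma adjusted p = 3.03e-10), and the log2 difference of ASO2 from ASO10 was 1.02 in both. In IMR32 the values overlapped, at 748, 640.2, 691 and 674 with NCA, 729, 817, 800.0 and 765 with ASO1 and 765, 749.5, 741 and 740.5 with ASO2, and the rise with ASO1 (0.18) was lost without any 1 of 4 libraries (limma adjusted p = 0.087 without NCA replicate 2). On GRCh38 in GENCODE 29 the gene spans chr21:43789513-43805293 and overlaps no other coding gene.

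PPAN, a factor of large subunit assembly, was the member with the largest rise with ASO2 in IMR32 (0.55 ± 0.10 SE, limma adjusted p = 0.000251), at 80.2, 80.2, 87.9 and 81.8 with NCA, 91.3, 107, 108 and 94.4 with ASO1 and 129.8, 116, 119 and 119 with ASO2. It was at 351, 357 and 276 with NCA, 298, 337 and 355 with ASO2 and 364, 397 and 319.5 with ASO10 in NGP, where all groups overlapped. Counts for SK-N-BE(2)c were 332, 297 and 264 with NCA, 464, 418 and 367 with ASO2 and 387, 383 and 338 with ASO10, and both rises passed, the one with ASO10 (0.31) not without NCA replicate 3 (0.23, limma adjusted p = 0.0695). The rise with ASO1 in IMR32 (0.28) was lost without any 1 of 5 libraries and with DESeq2 (0.28, DESeq2 adjusted p = 0.124). PPAN shares its locus with the read-through gene PPAN-P2RY11, so its counts are uncertain. The remaining large subunit factors WDR74, MRTO4, NIP7, NOP16 and GRWD1 rose with ASO2 in all 3 lines, by 0.21 (NOP16 in SK-N-BE(2)c, NIP7 in NGP) to 0.54 (GRWD1 in SK-N-BE(2)c). Of these calls, NOP16 in SK-N-BE(2)c (0.08) and NIP7 in NGP (0.14) did not hold after rescaling. RRS1 rose with ASO2 in NGP (0.21) and SK-N-BE(2)c (0.16), and neither call held after rescaling (0.14 and 0.02).

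Set directly against each other, ASO2 gave more of these transcripts than ASO10. In NGP, 24 of 44 members were higher with ASO2 than with ASO10 and 6 lower (all genes 30.6% and 28%; member median 0.16). In SK-N-BE(2)c, 33 of 44 were higher and 4 lower (all genes 34.6% and 30.8%; member median 0.32). Rescaling turned the SK-N-BE(2)c split over all genes from 4689 higher and 4172 lower into 3678 and 5016, with 29 members higher and 6 lower. The NGP split turned as well, from 4414 higher and 4044 lower into 3795 and 4551, with 20 members higher and 8 lower. In IMR32, 1 member was higher with ASO1 than with ASO2 and 14 were lower (all genes 9.17% and 12.8%; member median -0.11). There the rescaled split over all genes was 2352 higher and 1581 lower in place of 1588 and 2207, and 3 members were higher and 9 lower. The largest differences in IMR32 were those of WDR75 (-0.63 ± 0.05 SE, limma adjusted p = 8.44e-08) and TCOF1 (-0.53 ± 0.04 SE, limma adjusted p = 8.44e-08).

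The response to the same oligonucleotide was compared between SK-N-BE(2)c and NGP in one model of all 18 libraries. For ASO2, 7 of 44 members responded more positively in SK-N-BE(2)c and 1 less (all genes 10.5% and 9.37%). The 7 were PPAN (difference of differences 0.47), RRN3 (0.34), NOB1 (0.32), BYSL (0.32), PES1 (0.27), NOP2 (0.23) and TCOF1 (0.23), and UTP20 was the 1 with the lower value (-0.38). Over all genes this split of 1330 higher and 1184 lower became 865 and 1769 after rescaling, where 3 members were higher and 2 lower. RRN3, BYSL and PES1 were the members among the 7 that lost their call under no setting tried. For ASO10, 2 members responded more positively in SK-N-BE(2)c, UBTF (0.26) and TCOF1 (0.20), and 5 less, UTP18 (-0.39), POLR1E (-0.36), UTP20 (-0.33), RRP12 (-0.31) and POLR1B (-0.29), where 9.35% of all genes were higher and 9.86% lower. Of these, the calls of POLR1B, UBTF, TCOF1 and UTP20 were lost under some settings, among them no filter on low values (limma adjusted p = 0.1 for POLR1B, 0.052 for UBTF, 0.0781 for TCOF1 and 0.0994 for UTP20). These counts are near the shares over all genes and are no result about the members as a group.

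In the controls the lines themselves differed. Between NCA libraries, 18 of 44 members were higher in SK-N-BE(2)c than in NGP and 12 lower, close to the 38.1% and 36.9% of all genes. The log2 difference of SK-N-BE(2)c from NGP was 0.99 ± 0.09 (SE, limma adjusted p = 4.52e-11) for WDR75 and -0.89 ± 0.07 (SE, limma adjusted p = 3.53e-13) for POLR1E. Per kilobase of exon, nucleolin led in IMR32 (3081 normalised counts per kilobase) and SK-N-BE(2)c (3834), NOP10 in NGP (3868), and UTP15 was the lowest member in NGP (72.8) and SK-N-BE(2)c (66.3).

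A longer list of other ribosome biogenesis genes, 99 in the IMR32 table and 96 in the others, was counted in the same way, and it was also chosen with earlier results known. With ASO2 in IMR32, 54 rose and 3 fell (54.5% and 3.03%, against 17.6% and 14.8% of all genes). For NGP, 40 rose and 24 fell (41.7% and 25% against 30.6% and 28.1%), where the share that fell is near that of all genes. For SK-N-BE(2)c, 57 rose and 18 fell (59.4% and 18.8% against 33.6% and 33.4%). With ASO1, 39 rose and 5 fell (39.4% and 5.05% against 13.6% and 14.4%). With ASO10, 35 rose and 15 fell in NGP (36.5% and 15.6% against 26.8% and 27.6%), and the 26 that rose and 24 that fell in SK-N-BE(2)c (27.1% and 25%) are near the 27.8% and 31.1% of all genes. The largest rises over the 6 comparisons were those of the processome genes UTP11 (1.12 with ASO2 for NGP and 1.10 for SK-N-BE(2)c) and UTP14A (1.01 with ASO10 for NGP and 0.78 for SK-N-BE(2)c). The largest falls were those of RRP7A, a small subunit factor, with ASO2 (-1.58 for NGP and -1.54 for SK-N-BE(2)c; -0.17 and 0.06 with ASO10), and of ESF1, with ASO2 (-1.31 and -1.36; 0.12 and -0.10 with ASO10).

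The IMR32 table holds 5 entries for the ribosomal RNA precursor, which were not analysed in the other lines. These entries also cover the mature ribosomal RNAs, and the kit of each library is not known, so precursor and leftover mature RNA cannot be told apart and the sums are no measure of Pol I output. Their summed normalised count was 21310 ± 1646 with NCA, 17810 ± 1815 with ASO1 and 21170 ± 4535 with ASO2 (SD, n = 4 each). Ratios to NCA were 0.836 for ASO1 and 0.993 for ASO2. Two-sided exact permutation tests gave p = 0.0571 for ASO1 (0.171 adjusted over the 3 comparisons of groups) and p = 0.914 for ASO2, where the smallest p that 4 against 4 libraries allow is 0.0286. Neither difference passed, and the ASO2 libraries had the widest spread.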

How the data were processed

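RNA-seq was measured in 30 libraries of 3 neuroblastoma cell lines. The gene sets differ: the IMR32 values cover 62710 gene identifiers and those of NGP and SK-N-BE(2)c 57905 each. The deposited values are a normalised signal per gene: gene counts that the authors divided by a size factor per library, with IMR32 scaled alone and NGP and SK-N-BE(2)c scaled together, as the values themselves show. Per the submitters' processing notes, FastQC 0.11.8, cutadapt 1.18, STAR 2.6.0, HTSeq 0.6.1 and DESeq2 1.42.0 were used with hg19, in roles that are not given in the sources used here. Per the labels' protocols, either a stranded total RNA kit or a stranded mRNA kit was used, and the kit of each library is not stated. Columns were matched to samples by name, 0 columns went unused, and the NCA columns of NGP and SK-N-BE(2)c spell replicate 1 differently from the others.

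Values were tested as log2(value + 1) with limma 3.58.1 in R 4.3.3 (group means, moderated variances with trend) on genes with a mean of at least 10 in a line, all groups of a line in one fit. Benjamini-Hochberg adjustment ran over all genes tested and a call needed an adjusted p under 0.05. NGP and SK-N-BE(2)c were also fitted together. Whole reads could be recovered from the steps in the values (100% whole within 0.01 of a read) and served edgeR 4.0.16 and DESeq2 1.42.0 as alternatives. Further alternatives were the pseudocount, the filter, a common total, fits of 2 groups, the replicate number as a block, and each library left out. The fits were tested on simulated data.

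The members and the other gene lists were chosen with earlier results of these data known. Values in every library were to be given for members called with one sign in all 6 comparisons with NCA, for the 2 highest and 2 lowest called members of each such comparison, for members called with opposite signs by ASO2 and ASO10 for NGP as well as for SK-N-BE(2)c, and for the 2 largest called differences of either sign between those lines; of the other pathway genes, the 2 largest mean rises and falls were named. Other single values were chosen after they were seen. Gene positions and overlaps come from GENCODE 29 on GRCh38, and promoters from RefSeq. One of the listed marker genes is not reported here.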

Additional observations from a re-analysis of the deposited data

Results flagged for a closer look

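Among the IMR32 groups of 4 libraries, 9 of 135 combinations of member and group had 1 library far from the other 3, where chance alone gives about 1 in 20. Replicate 1 of NCA stood high for FBL (1402.8 against 1113.9 to 1149.3), NOLC1 (5463.6 against 4965.3 to 5042.8), NCL (23826 against 20307 to 20743), NPM1 (8866.2 against 7651.7 to 7681.1) and DDX21 (4647.2 against 3993.5 to 4092.9). For these genes replicate 1 was also the highest library with ASO1 and with ASO2. Replicate 1 of ASO1 stood high for FBL (1303.2 against 1020.3 to 1067.7) and WDR43 (2019.5 against 1894.8 to 1899.5). Replicate 3 of NCA stood high for RRP12 (786.36 against 738.55 to 745.97), and replicate 4 of NCA low for GRWD1 (537.43 against 572.2 to 578.54).

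The response to the same oligonucleotide differed between SK-N-BE(2)c and NGP for 15 results by limma's test of the difference. With ASO2 the difference of log2 differences was 0.34 for RRN3 (adjusted p = 0.00323), 0.27 for PES1 (0.00399), 0.32 for BYSL (0.00814), -0.38 for UTP20 (0.0151), 0.32 for NOB1 (0.0202), 0.23 for TCOF1 (0.0208), 0.23 for NOP2 (0.0308) and 0.47 for PPAN (0.0356). With ASO10 it was -0.39 for UTP18 (adjusted p = 0.0066), -0.36 for POLR1E (0.00809), -0.31 for RRP12 (0.0153), 0.26 for UBTF (0.0178), -0.33 for UTP20 (0.0304), -0.29 for POLR1B (0.0358) and 0.20 for TCOF1 (0.0391). The ASO10 calls of POLR1B, UBTF, UTP20 and TCOF1 were lost without the filter on low values (limma adjusted p = 0.1, 0.052, 0.0994 and 0.0781) and without some single libraries, and that of POLR1B also with edgeR (edgeR adjusted p = 0.0638). Of the ASO2 calls, those of UTP20, NOB1, NOP2 and PPAN were lost without the filter (limma adjusted p = 0.0654, 0.0585, 0.088 and 0.113), and that of TCOF1 after rescaling (0.0998).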

How the results depend on the processing

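Of the 176 calls of members against NCA, 0 reversed under any alternative run, 24 were lost without some single library, 12 after rescaling each library to the same total, 8 without the filter on low values, 4 with DESeq2, 1 with only the 2 groups compared in the fit, and 0 with edgeR, either other pseudocount, a mean of at least 50 or the replicate block. Leaving out 1 library at a time, members higher and lower with ASO2 ranged over 30 to 38 and 0 in IMR32, 29 to 32 and 2 to 3 in NGP, and 34 to 38 and 3 to 4 in SK-N-BE(2)c.

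The counts that moved by over 1.5 times were those of the comparisons of oligonucleotides in IMR32 and of lines and, under the replicate block alone, the members lower with ASO1 in IMR32 (4 in place of 2). The cause was not tested. For ASO1 against ASO2 in IMR32 (1 higher and 14 lower), no filter gave 0 and 9, rescaling 3 and 9, and leaving out 1 library 0 to 2 and 7 to 16, with 8, 7 and 9 lower without ASO1 replicate 2, 3 or 4 and 9 without ASO2 replicate 1. For SK-N-BE(2)c against NGP with ASO2 (7 and 1), no filter gave 4 and 0, rescaling 3 and 2, and leaving out 1 library 4 to 10 and 0 to 2. With ASO10 (2 and 5), no filter gave 0 and 3, rescaling 1 higher, edgeR 4 higher, and leaving out 1 library 0 to 4 and 3 to 8.

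The replicate numbers were not taken as pairing the libraries: correlations of same-numbered deviations in IMR32 ran from 0.055 to 0.318 between ASO1 and NCA, where 3 of 4 libraries correlated best with their own number, and no comparison had every pair over 0.1. With the replicate block, IMR32 members with ASO1 were 25 higher and 4 lower, with ASO2 41 higher and 0 lower, and for ASO1 against ASO2 2 higher and 23 lower; the lines with ASO10 differed for 8 members lower. In NCA libraries of IMR32, NOP2 (a mean of 50.3) and PPAN were the members measured with the fewest counts.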
